A study of Mus musculus with 6 samples.

Results

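Smads and their inhibitors are the 10 genes Smad1, Smad2, Smad3, Smad4, Smad5, Smad6, Smad7, Ski, Skil and Smurf2. They were taken by name as a pathway family, but with earlier results of these data known. Each was matched to the array probe sets annotated with its symbol alone, and each gene was represented by its probe set of highest mean level across the 6 arrays. All 10 were measured, among 18193 genes on the array, by 24 probe sets in all, and Smad6 was the member with a single probe set. Expression was measured on Affymetrix mouse arrays in NMuMG, an epithelial cell line established from the mammary gland of a normal mouse, grown with serum and insulin in every group. In the withdrawal group the cells received 4 ng/ml TGF-β for 11 days and were then kept without it for 13 days. In the TGF-β group they received 4 ng/ml for 11 days, and control cells received vehicle. There were 2 arrays per group, which limits how precise any value can be. Since nothing says that the 2 came from separate cultures, a p-value here measures the spread between arrays, and that spread may be technical. Withdrawn cells were also taken 13 days later after treatment began than TGF-β cells, so withdrawal and time in culture cannot be told apart. The titles of the control samples give no number of days, so time in culture may differ in the comparisons with control too.

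TGF-β is a secreted cytokine that signals through paired serine/threonine kinase receptors. The receptors phosphorylate the receptor-activated Smads, Smad2 and Smad3 in the TGF-β and activin branch and Smad1 and Smad5 in the bone morphogenetic protein (BMP) branch, which then join Smad4 and act on genes in the nucleus. Smad6 and Smad7 are inhibitory Smads, Smurf2 is a ubiquitin ligase that targets Smads and receptors, and Ski and Skil (SnoN) are nuclear proteins that bind Smads and repress their target genes. Several of these inhibitors are themselves known targets of the pathway, and activation of Smad proteins by phosphorylation is not seen by an RNA measurement.

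Pearson's r across probe sets, which are not independent replicates, was 0.998 within groups and 0.974 to 0.981 between them. Another field of the labels names the state of the treated groups the other way round from the treatment, with withdrawal as the transition to mesenchyme and TGF-β as the way back; the groups here follow the titles and treatment entries. Cdh1, which encodes the epithelial adhesion protein E-cadherin, had a log2 level of 11.80 and 11.79 on the withdrawal arrays, 8.37 and 8.25 on the TGF-β arrays and 11.99 and 11.89 on the control arrays. The summed log2 level of the 6 epithelial markers was 65.7 to 65.8 on the withdrawal arrays, 56.8 to 56.9 on the TGF-β arrays and 68.5 to 68.8 on the control arrays, and the part of this in the results below was not tested. The 6 did not move as one: 5 were lower under TGF-β than in control, and on withdrawal against TGF-β Cdh1, Krt19 and Ocln were higher, the keratin gene Krt8 and Epcam were lower, at -0.22 and -0.27, and Krt18 was not called. Withdrawal against control had 3 of the 6 lower and 0 higher. Markers of leukocytes, endothelium and adipocytes were mostly dim: below 6.08, the level under which 40% of genes lie, were 3 of 5, 3 of 4 and 3 of 3 in withdrawal and 4 of 5, 3 of 4 and 3 of 3 under TGF-β and in control. Among them Cd68, a lysosomal protein gene abundant in macrophages, was higher in withdrawal by 1.05 against TGF-β and by 0.88 against control, and the endothelial cadherin gene Cdh5 differed by -0.26 for TGF-β against control and passed. Fewer cells of a type and less RNA per cell cannot be told apart in such bulk samples.

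The stretches of DNA before the transcription start of 3 members are shown because Smurf2 and Ski rose under TGF-β while Smad6 fell. They are the 250 bases upstream of the start, from RefSeq on GRCm38.p6, and they are written 5′ to 3′ in the gene's orientation. Windows of 6 of the 10 members were examined. Those of Smad2, Smad4 and Smad7 were left out, which does not mean that they had no match. For Skil no window was found. Capitals mark matches, on either strand, to CAGAC, the core of the Smad-binding element, or GGCGCC, a GC-rich element known for Smad DNA-binding domains.
Smurf2 (chr11:106920716-106920965, minus strand): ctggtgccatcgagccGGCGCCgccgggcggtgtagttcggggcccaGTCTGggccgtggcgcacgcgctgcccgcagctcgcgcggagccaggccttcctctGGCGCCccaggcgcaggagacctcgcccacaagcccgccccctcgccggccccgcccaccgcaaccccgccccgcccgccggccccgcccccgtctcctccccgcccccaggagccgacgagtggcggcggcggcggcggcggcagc
Ski (chr4:155222536-155222785, minus strand): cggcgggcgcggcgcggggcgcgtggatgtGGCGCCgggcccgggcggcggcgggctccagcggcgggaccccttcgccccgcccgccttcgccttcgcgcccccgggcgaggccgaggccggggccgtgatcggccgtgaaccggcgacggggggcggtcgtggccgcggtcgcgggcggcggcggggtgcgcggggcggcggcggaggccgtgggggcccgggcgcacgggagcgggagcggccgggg
Smad6 (chr9:64022060-64022309, minus strand): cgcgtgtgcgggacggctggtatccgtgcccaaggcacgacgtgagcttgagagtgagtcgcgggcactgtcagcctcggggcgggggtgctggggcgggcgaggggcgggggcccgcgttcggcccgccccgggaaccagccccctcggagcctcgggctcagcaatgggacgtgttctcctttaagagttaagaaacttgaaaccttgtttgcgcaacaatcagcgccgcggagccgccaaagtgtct
The Smurf2 window held 1 CAGAC match, read as GTCTG, and 2 GGCGCC matches. The Ski window held 0 CAGAC and 1 GGCGCC matches, and the Smad6 window held 0 of either. Among the windows not shown, those of Smad1 and Smad3 held 0 of either. Smad5, which also rose, had a window with 0 of either, another with 1 GGCGCC match and another with 1 CAGAC match. The palindrome GTCTAGAC, the Smad box, was searched too and was in 0 of these windows. Of all 32851 upstream windows of this length, 42.2% held CAGAC, 9.59% held GGCGCC and 0.167% held GTCTAGAC; none of these 3 motifs overlaps another in the windows shown. The windows are rich in G and C, at 82.0% for Smurf2, 87.6% for Ski and 66.8% for Smad6. A match of letters is a description and not a site of binding.

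Treatment with TGF-β for 11 days was compared with vehicle to ask what the cytokine did to the transcripts of its own transducers and inhibitors. The inhibitors Smurf2, Ski, Skil and Smad7 rose by 0.57 to 0.70 on the log2 scale, while the inhibitor Smad6 fell by 1.07. Among the transducers Smad5 rose by 0.34 and Smad3 fell by 0.31, and Smad1, Smad2 and Smad4 did not pass. In all, 5 of the 10 members were higher and 2 lower by the limma test at an adjusted p under 0.05, where 15.0% of all genes were higher, 17.5% lower and 32.4% called either way. The median absolute difference was 0.46 over the members and 0.14 over all genes tested.

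Smad6, the inhibitory Smad known mainly for restraining the BMP branch, had log2 levels of 6.47 and 6.27 on the TGF-β arrays, against 7.47 and 7.42 on the control arrays. The groups did not overlap, and the TGF-β level was 0.477-fold that of control (95% CI 0.414 to 0.548, limma adjusted p = 0.000233). It was the largest difference among the members, and larger in size than that of 95.3% of genes. The TGF-β values are close to the dim part of the array, where differences are understated.

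Smad7, the inhibitory Smad that blocks TGF-β receptors and is a known feedback target of the pathway, had 9.49 and 9.39 on the TGF-β arrays, against 8.85 and 8.89 on the control arrays. Both TGF-β arrays lay above both control arrays, by 1.49-fold (95% CI 1.34 to 1.65, limma adjusted p = 0.000929). The confidence intervals of the Smad6 and Smad7 differences lay on opposite sides of 0, so the 2 inhibitory Smads moved in opposite directions.

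Smurf2, the ubiquitin ligase that Smad7 brings to the receptors, had 9.52 and 9.49 on the TGF-β arrays, against 8.82 and 8.80 on the control arrays. The arrays of a group nearly coincided, and the groups were apart by 1.62-fold (95% CI 1.49 to 1.76, limma adjusted p = 0.000164). Its other probe sets differed by 0.44 and 0.45 and both passed.

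Ski, a corepressor that binds Smad2, Smad3 and Smad4, had 9.51 and 9.50 on the TGF-β arrays, against 8.94 and 8.84 on the control arrays. It was 1.54-fold higher without overlap (95% CI 1.40 to 1.69, limma adjusted p = 0.000473). Skil, its relative and a known early target of TGF-β, had 10.52 and 10.50 on the TGF-β arrays, against 9.93 and 9.92 on the control arrays. It was 1.50-fold higher, also without overlap (95% CI 1.27 to 1.78, limma adjusted p = 0.00606). The weaker second probe set of Skil differed by 0.27, less than the 0.59 of the first, and passed too.

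Smad3, the transducer through which TGF-β reaches many matrix genes, had 9.24 and 9.26 on the TGF-β arrays, against 9.56 and 9.55 on the control arrays. The groups were separate and the TGF-β level was 0.807-fold that of control (95% CI 0.733 to 0.888, limma adjusted p = 0.0079). Its other probe sets, at a mean of 6.17 and 5.68 near or in the dim part of the array, differed by -0.12 and -0.23 and did not pass.

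Smad2, its partner in the same branch, had 8.95 and 9.07 on the TGF-β arrays, against 9.10 and 9.03 on the control arrays. These overlapped, the difference was -0.06 (95% CI -0.21 to 0.10) and it did not pass (limma adjusted p = 0.568). The dimmer probe set of Smad2 differed by 0.30 and did pass over all probe sets (limma adjusted p = 0.0189), so its 2 probe sets do not give one answer.

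Smad5, a transducer of the BMP branch, had 8.88 and 8.94 on the TGF-β arrays, against 8.61 and 8.53 on the control arrays. Both TGF-β arrays were the higher ones, by 1.26-fold (95% CI 1.14 to 1.40, limma adjusted p = 0.00673). Smad1, of the same branch, had 9.73 and 9.69 on the TGF-β arrays, against 9.60 and 9.52 on the control arrays. The arrays did not overlap, but the difference of 0.15 did not pass (limma adjusted p = 0.103; 0.0151 with an intensity trend in the spread and 0.0394 without the dimmest 40% of genes).

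Smad4, the partner shared by both branches, had 10.91 and 10.79 on the TGF-β arrays, against 11.00 and 11.05 on the control arrays. The difference of -0.18 did not pass (95% CI -0.33 to -0.03, limma adjusted p = 0.0746), though it passed under 5 of the other settings. The second Smad4 probe set, at a mean of 9.94, differed by -0.28 and passed (limma adjusted p = 0.0229). The dimmest differed by -0.12 and did not (limma adjusted p = 0.289). With the arrays scaled to poly-A RNAs added before labelling, where the median of all genes was -0.29, the calls of Ski, Skil, Smad5 and Smad7 were lost and that of Smad4 was gained, leaving 1 member higher and 3 lower. Of all 18193 genes, 836 were higher and 5102 lower in that setting. With the arrays scaled instead to spiked hybridization controls the call of Smad5 was lost and that of Smad4 gained.

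**Figure D1:**
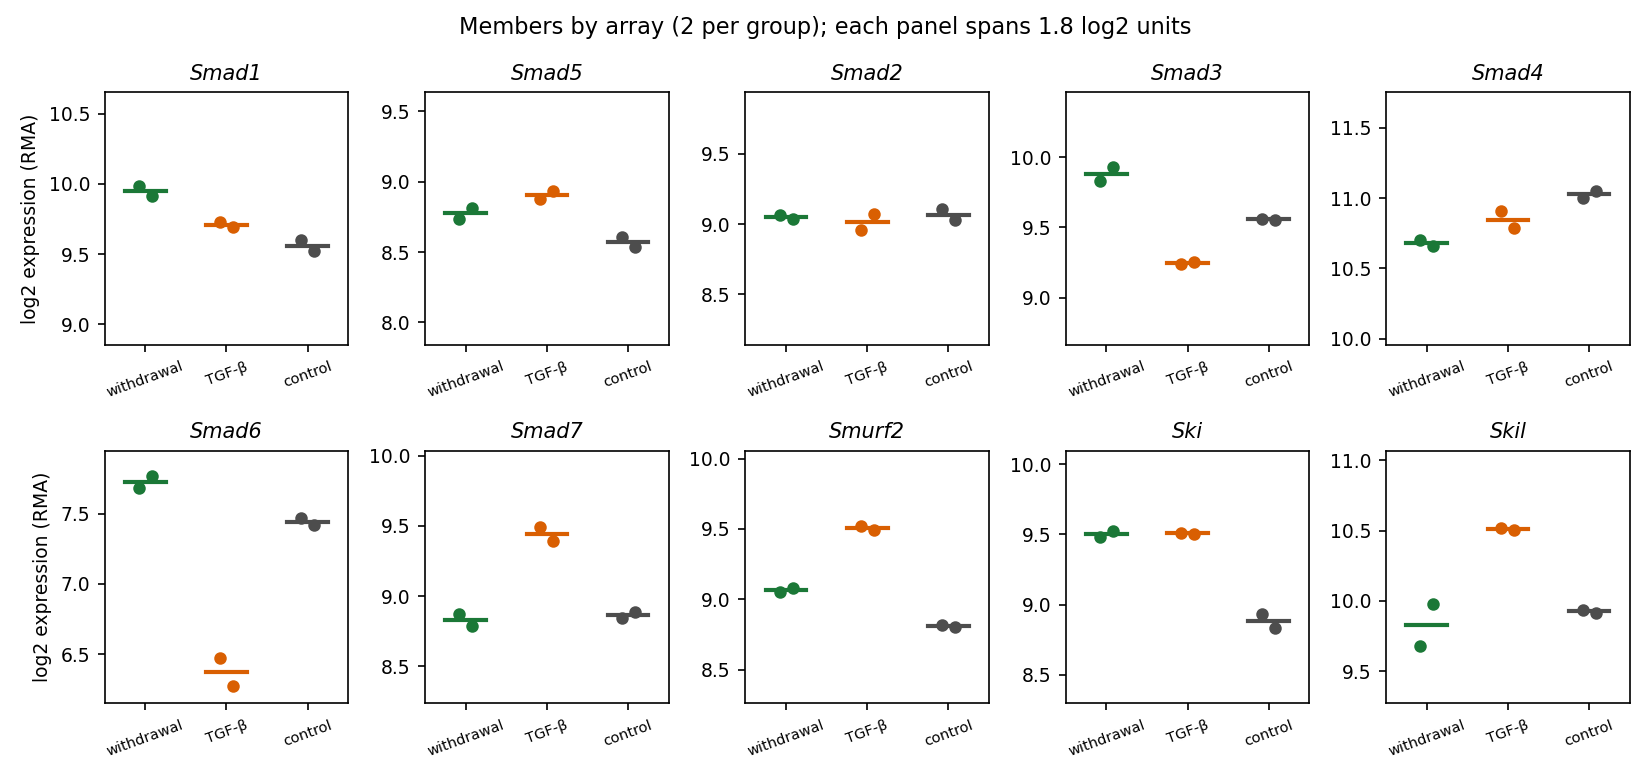
Log2 expression of each member (vertical axis, every panel spanning 1.8 units) on each array, for withdrawal, TGF-β and control from left to right; points are arrays and lines the mean of 2. Smad6 is lowest under TGF-β, Smad7, Smurf2 and Skil are highest there, and Ski lies at about 9.5 in both treated groups and at 8.89 in control.

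The second comparison asked what changed once TGF-β had been absent for 13 days. Smad6 and Smad3 rose and Skil, Smad7 and Smurf2 fell, which for each of these is the direction opposite to its change under TGF-β; the 2 comparisons share the TGF-β arrays, so this opposition is given as values and not as a result of its own. By its brightest probe set Ski did not follow them. Of the 10 members, 3 were higher and 3 lower in withdrawal than under TGF-β, where 21.8% of all genes were higher, 22.1% lower and 43.9% called either way.

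Smad6 had 7.68 and 7.77 on the withdrawal arrays, against 6.47 and 6.27 on the TGF-β arrays. It was 2.55-fold higher without overlap (95% CI 2.22 to 2.93, limma adjusted p = 5.84e-05), a difference larger in size than that of 95.9% of genes. Smad3 had 9.83 and 9.93 on the withdrawal arrays, against 9.24 and 9.26 on the TGF-β arrays. It was 1.55-fold higher (95% CI 1.41 to 1.70, limma adjusted p = 0.000271), and the groups were well apart. The dim probe sets of Smad3 showed differences of 0.06 and -0.04, which did not pass.

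Smad7 had 8.87 and 8.79 on the withdrawal arrays, against 9.49 and 9.39 on the TGF-β arrays. It fell to 0.654-fold (95% CI 0.589 to 0.727, limma adjusted p = 0.000447), and its second probe set fell as well, by 0.77. Skil had 9.68 and 9.98 on the withdrawal arrays, against 10.52 and 10.50 on the TGF-β arrays. The withdrawal arrays of Skil differed by more than those of any other member (SD 0.21), yet both lay below the TGF-β arrays, and the level was 0.623-fold (95% CI 0.525 to 0.738, limma adjusted p = 0.00217).

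Smurf2 had 9.05 and 9.08 on the withdrawal arrays, against 9.52 and 9.49 on the TGF-β arrays. It fell to 0.737-fold without overlap (95% CI 0.678 to 0.801, limma adjusted p = 0.000663), but the difference of -0.30 with poly-A scaling did not pass (limma adjusted p = 0.217). The second Smurf2 probe set differed by -0.57 and passed (limma adjusted p = 0.000948), and the dimmest by -0.19 and did not (limma adjusted p = 0.153). Ski had 9.48 and 9.52 on the withdrawal arrays, against 9.51 and 9.50 on the TGF-β arrays. The TGF-β values lay within the range of the withdrawal values, and the difference was -0.01 (95% CI -0.15 to 0.13, limma adjusted p = 0.947). Its second probe set had 8.85 and 8.83 on the withdrawal arrays, against 9.07 and 8.95 on the TGF-β arrays. These did not overlap, but the difference of -0.17 did not pass (limma adjusted p = 0.0925).

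Smad1 had 9.98 and 9.91 on the withdrawal arrays, against 9.73 and 9.69 on the TGF-β arrays. It was 1.18-fold higher (limma adjusted p = 0.0178), a call that was lost without the first TGF-β array, the second TGF-β array or the first withdrawal array (limma adjusted p = 0.0518, 0.0854 and 0.0751). Its other probe sets differed by 0.05 and 0.07 and did not pass, and the call was also lost with the mean of probe sets, with poly-A scaling and with hybridization scaling (differences of 0.12, 0.38 and 0.01, limma adjusted p = 0.117, 0.0908 and 0.936). Smad5 had 8.74 and 8.82 on the withdrawal arrays, against 8.88 and 8.94 on the TGF-β arrays, and the difference of -0.13 did not pass (limma adjusted p = 0.13). Its dimmest probe set was lower by 0.59 on the log2 scale and passed (limma adjusted p = 0.000506), and so did the mean of its probe sets, at -0.25 (limma adjusted p = 0.00759). Smad4 had 10.70 and 10.66 on the withdrawal arrays, against 10.91 and 10.79 on the TGF-β arrays, and its difference of -0.16 did not pass either (limma adjusted p = 0.082). By the brightest probe set of each gene the withdrawal arrays were the lower ones without overlap. The dimmest Smad4 probe set went the other way, with 9.89 and 10.01 on the withdrawal arrays, against 9.61 and 9.60 on the TGF-β arrays, and its difference of 0.34 passed (limma adjusted p = 0.0116). With the mean of probe sets Smad4 differed by 0.07 and did not pass (limma adjusted p = 0.359). Smad2 had 9.06 and 9.04 on the withdrawal arrays, against 8.95 and 9.07 on the TGF-β arrays, which overlapped, and its difference was 0.04 (95% CI -0.11 to 0.19, limma adjusted p = 0.66).

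**Figure D2:**
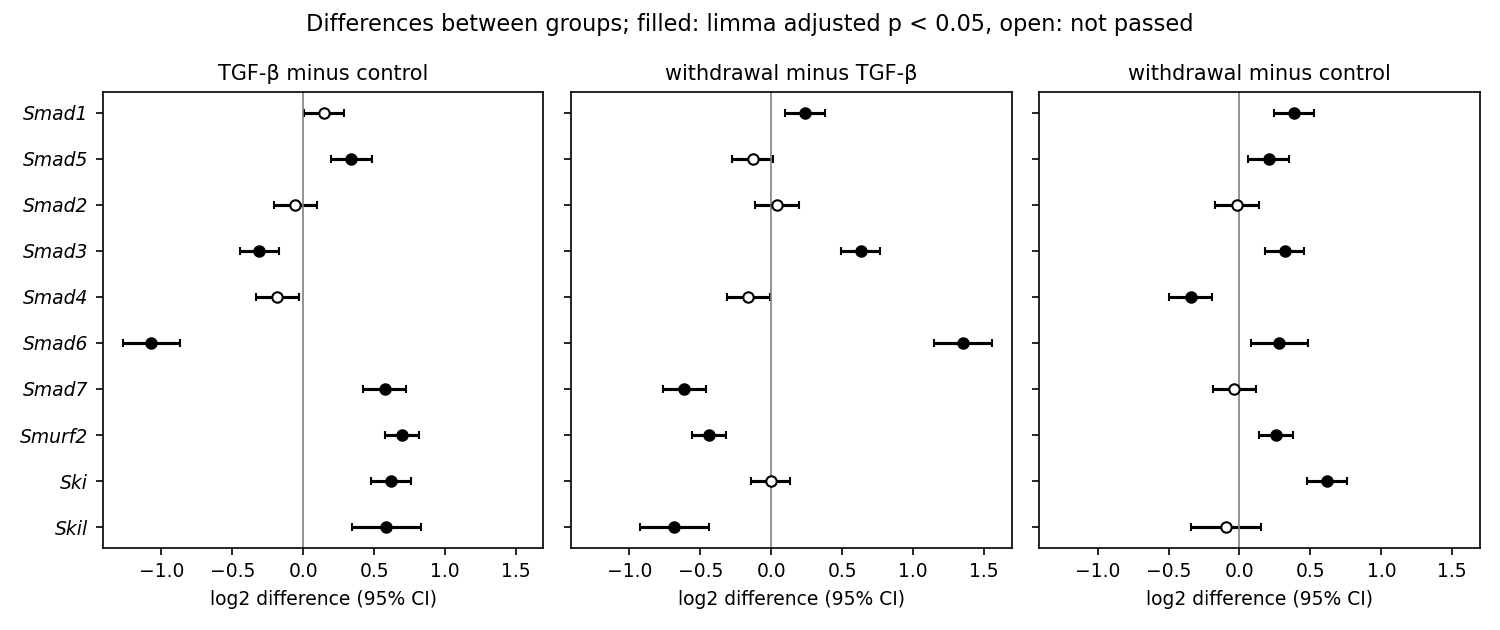
Log2 difference of each member with its 95% confidence interval (horizontal axis) for the 3 comparisons; filled points passed the limma test at an adjusted p under 0.05. Smad6 has the largest difference in the first 2 panels, at -1.07 and 1.35, and Ski is near 0.6 in the first and the last panel and at -0.01 in the middle one.

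The last comparison set cells that had been treated and then withdrawn against cells that were never treated. Among the members Ski was the furthest above control, at 0.62 on the log2 scale, while Smad7 and Skil did not differ detectably from control by their brightest probe sets. Smad1, Smad3, Smad5, Smad6 and Smurf2 were higher by smaller amounts and Smad4 was lower, but with the arrays scaled to spiked hybridization controls, where the median of all genes was -0.43, the differences of Smad1, Smad3, Smad5, Smad6 and Smurf2 turned to below 0 without passing. In that setting 12745 of all 18193 genes were called lower. Smad7, Skil and Smad2 then passed as lower too, at -0.43, -0.49 and -0.41 (limma adjusted p = 0.00312, 0.000815 and 0.00481), near the median of all genes. With poly-A scaling the calls of Smad1, Smad3, Smad5, Smad6 and Smurf2 were lost. In all 6 members were higher and 1 lower, where 21.7% of all genes were higher, 23.6% lower and 45.3% called either way. The median absolute difference was 0.27 over the members and 0.20 over all genes.

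Ski had 9.48 and 9.52 on the withdrawal arrays, against 8.94 and 8.84 on the control arrays. It was 1.53-fold higher without overlap (95% CI 1.39 to 1.69, limma adjusted p = 0.000281), and its second probe set was higher by 0.54 and passed. Scaled to the hybridization spikes, Ski differed by 0.22, which missed the threshold (limma adjusted p = 0.124). Smad7 had 8.87 and 8.79 on the withdrawal arrays, against 8.85 and 8.89 on the control arrays. These overlapped, with a difference of -0.04 (95% CI -0.19 to 0.11, limma adjusted p = 0.665).

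Skil had 9.68 and 9.98 on the withdrawal arrays, against 9.93 and 9.92 on the control arrays. The withdrawal values lay on both sides of control, and the difference was -0.10 (95% CI -0.34 to 0.15, limma adjusted p = 0.486). Without the second withdrawal array it was -0.25 and passed (limma adjusted p = 0.0288), and without the first it was 0.05 and did not (limma adjusted p = 0.523). The second Skil probe set, at a mean of 6.33, had 5.68 and 5.62 on the withdrawal arrays, against 6.51 and 6.56 on the control arrays. It was lower by 0.88 on the log2 scale and passed (limma adjusted p = 7.79e-05), and with the mean of both probe sets Skil was lower, at -0.49 (limma adjusted p = 0.000664). The 2 probe sets differ in whether Skil lay at the control level or below it.

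Smad3 had 9.83 and 9.93 on the withdrawal arrays, against 9.56 and 9.55 on the control arrays. It was 1.25-fold higher without overlap (95% CI 1.13 to 1.37, limma adjusted p = 0.00467), so by its bright probe set Smad3 lay below control under TGF-β and above it after withdrawal. The dim probe sets of Smad3 differed by -0.06 and -0.27, did not pass, and took the mean over all its probe sets to a difference of -0.0029 (limma adjusted p = 0.975). Smad1 had 9.98 and 9.91 on the withdrawal arrays, against 9.60 and 9.52 on the control arrays. It was 1.31-fold higher (95% CI 1.19 to 1.44, limma adjusted p = 0.00219), and its other probe sets were higher by 0.22 and 0.24 and passed.

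Smurf2 had 9.05 and 9.08 on the withdrawal arrays, against 8.82 and 8.80 on the control arrays. It was 1.20-fold higher (95% CI 1.10 to 1.30, limma adjusted p = 0.00615), between its levels under TGF-β and in control. Its other probe sets differed by -0.13 and 0.25 and did not pass, nor did the mean of its probe sets, at 0.13 (limma adjusted p = 0.138). Smad6 had 7.68 and 7.77 on the withdrawal arrays, against 7.47 and 7.42 on the control arrays. It was 1.22-fold higher (95% CI 1.06 to 1.40, limma adjusted p = 0.0337), a call lost without any 1 of the withdrawal or control arrays (limma adjusted p = 0.0625 to 0.143).

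Smad5 had 8.74 and 8.82 on the withdrawal arrays, against 8.61 and 8.53 on the control arrays. The call, at 1.15-fold (limma adjusted p = 0.0316), was lost without the second withdrawal array or either control array (limma adjusted p = 0.124, 0.0623 and 0.153). Its probe sets went apart: the second was higher by 0.38 and the dimmest was lower, at -0.45, and both passed over all probe sets (limma adjusted p = 0.00828 and 0.0015), while their mean, at 0.05, did not (limma adjusted p = 0.501). Smad4 had 10.70 and 10.66 on the withdrawal arrays, against 11.00 and 11.05 on the control arrays. It was 0.788-fold (95% CI 0.709 to 0.875, limma adjusted p = 0.00508) without overlap, and its second probe set was lower too, at -0.26, and passed (limma adjusted p = 0.0232). Its dimmest probe set differed by 0.22 and did not pass (limma adjusted p = 0.0584), and the mean of its probe sets, at -0.13, did not either (limma adjusted p = 0.107).

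Smad2 had 9.06 and 9.04 on the withdrawal arrays, against 9.10 and 9.03 on the control arrays. These overlapped, with a difference of -0.02 (95% CI -0.17 to 0.14, limma adjusted p = 0.851), but its dimmer probe set, with 7.78 and 7.87 against 7.49 and 7.48, was higher by 0.34 and passed (limma adjusted p = 0.0074). Over the 14 probe sets that were not the brightest of their gene, the direction was that of the brightest for 13 under TGF-β against control, 11 for withdrawal against TGF-β and 8 for withdrawal against control. Of these 14, 8, 5 and 8 passed, where 27.2%, 39.6% and 40.8% of all probe sets did. Where both the brightest and another probe set passed, they had opposite signs once, for Smad5 in withdrawal against control.

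**Figure D3:**
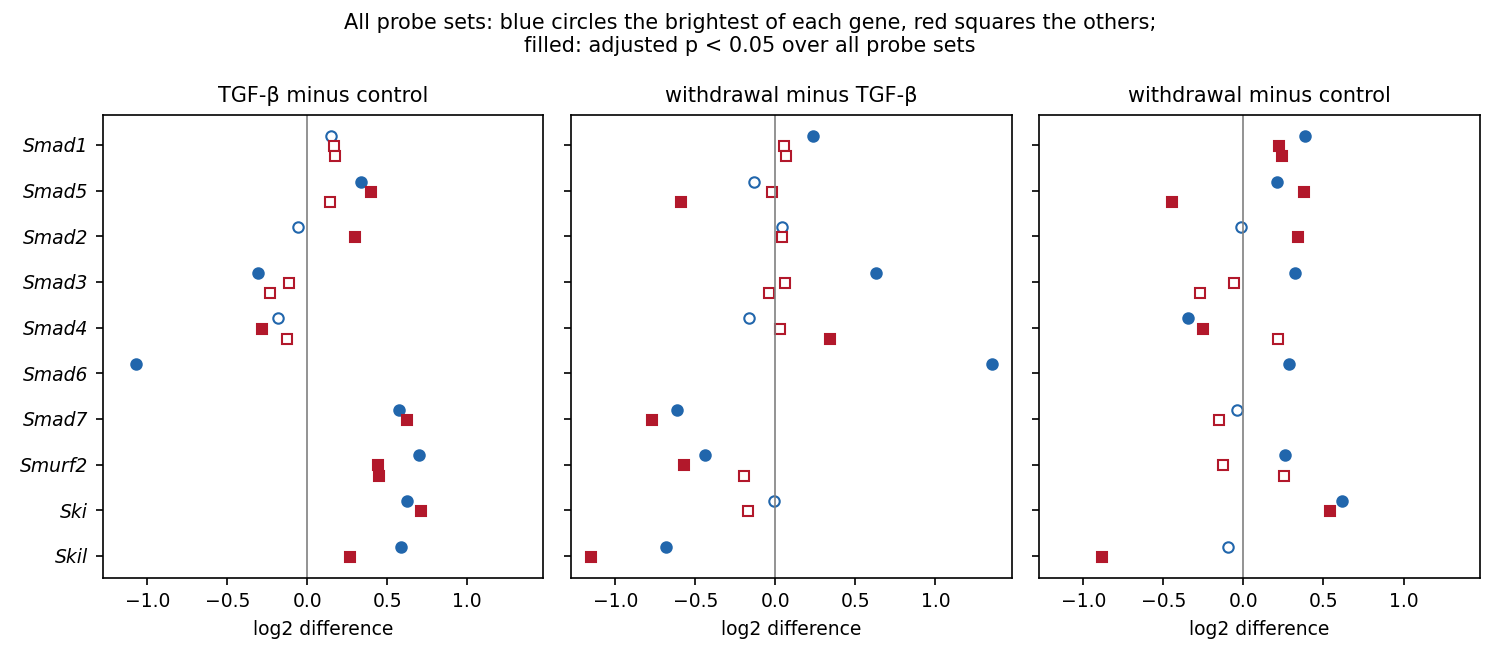
Log2 difference (horizontal axis) of all 24 member probe sets in the 3 comparisons; blue circles are the brightest probe set of a gene, red squares the others, and filled symbols passed at an adjusted p under 0.05 over all probe sets. Smad7, Ski and Smurf2 agree across probe sets under TGF-β, while Smad5, Skil and Smad4 spread on withdrawal.

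The pathway around the members was described from further lists, without a test of a list. The counts below stand beside these shares of all genes. For TGF-β against control 15.0% were higher and 17.5% lower. For withdrawal against TGF-β 21.8% were higher and 22.1% lower, and for withdrawal against control 21.7% and 23.6%. Of 14 other ubiquitin ligases and deubiquitinases that act on Smads or their receptors, TGF-β cells had 5 higher and 4 lower relative to control. Nedd4l, a ligase of the same family as Smurf2, was higher by 0.73 and Wwp1 by 0.60, and Smurf1 by 0.32. In withdrawal against control 7 were higher and 3 lower, with the deubiquitinase gene Usp11 at 1.33, Nedd4l at 1.16 and Smurf1 at 0.47, and Uchl5 lower at -1.33. The list's median was -0.03 under TGF-β against control and 0.10 for withdrawal against control, beside -0.01 and -0.04 over all genes.

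Of 21 adaptors, phosphatases, importins and cofactors, 5 were higher and 5 lower under TGF-β. Ldlrad4 and Pmepa1, which encode membrane proteins that keep Smad2 and Smad3 from the receptor, were higher by 1.79 and 0.87, and the corepressor gene Tgif2 by 0.79. The phosphatase gene Ctdspl was lower, at -1.12. On withdrawal against TGF-β 10 were higher and 6 lower. Among those higher were Ctdsp2, Ctdspl and Tob1, at 1.38, 1.28 and 1.14. Pmepa1 was at -1.53 and Ldlrad4 at -0.93, in the direction of Smad7 and Skil, though Ldlrad4 stayed above control by 0.86. Tgif2, at 0.03, did not pass and in this resembled Ski. Tgif2 had 8.15 and 8.19 on the withdrawal arrays, 8.13 and 8.16 on the TGF-β arrays and 7.41 and 7.28 on the control arrays. Smad9, the remaining receptor-activated Smad, named with its values known, did not pass in any of the 3 comparisons, with differences of 0.00, -0.17 and -0.17.

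Of 8 TGF-β and activin receptors, TGF-β cells had 1 higher and 2 lower relative to control, where 32.4% of all genes were called either way. Tgfbr1, the receptor kinase that phosphorylates Smad2 and Smad3, had 8.76 and 8.64 on the TGF-β arrays, against 10.19 and 10.07 on the control arrays, and was lower by 1.43 on the log2 scale. Tgfbr2, its partner, was higher by 0.67 under TGF-β and by 1.65 in withdrawal, both against control. Of 5 BMP receptors, 3 were higher under TGF-β, namely Acvr1 by 0.65, Bmpr2 by 0.61 and Bmpr1b by 1.56, the last with group means below 6.08 throughout.

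Of 11 measured genes known as direct Smad3 targets, 8 were higher and 1 lower under TGF-β, with a median of 0.87, and on withdrawal against TGF-β 2 were higher and 9 lower, with a median of -1.11; the medians over all genes were -0.01 and -0.03, and Pmepa1 is also in the list above. Among them were the collagen gene Col7a1, at 2.32 and -2.47, and the matricellular gene Ccn2, at 1.36 and -2.13. These are the arrays on which Smad3 itself was lower under TGF-β and higher on withdrawal. Of 10 genes known as direct targets of Smad1 and Smad5, 1 was higher, 3 lower and 6 not called under TGF-β. Of all genes 32.4% were called either way, and the median of the list was -0.03. Those called were Msx2 at 2.20, Id2 at -5.38, Id1 at -2.53 and Hey1 at -0.97. On withdrawal against TGF-β 3 of the list were higher and 3 lower, with a median of -0.03. Withdrawal against control had 2 higher and 6 lower, with a median of -0.20. Smad6 is itself known as a target of the BMP branch and was lower under TGF-β. In withdrawal Smad6 was higher, by 1.35 against TGF-β and by 0.28 against control. A link between these changes was not tested.

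**Figure D4:**
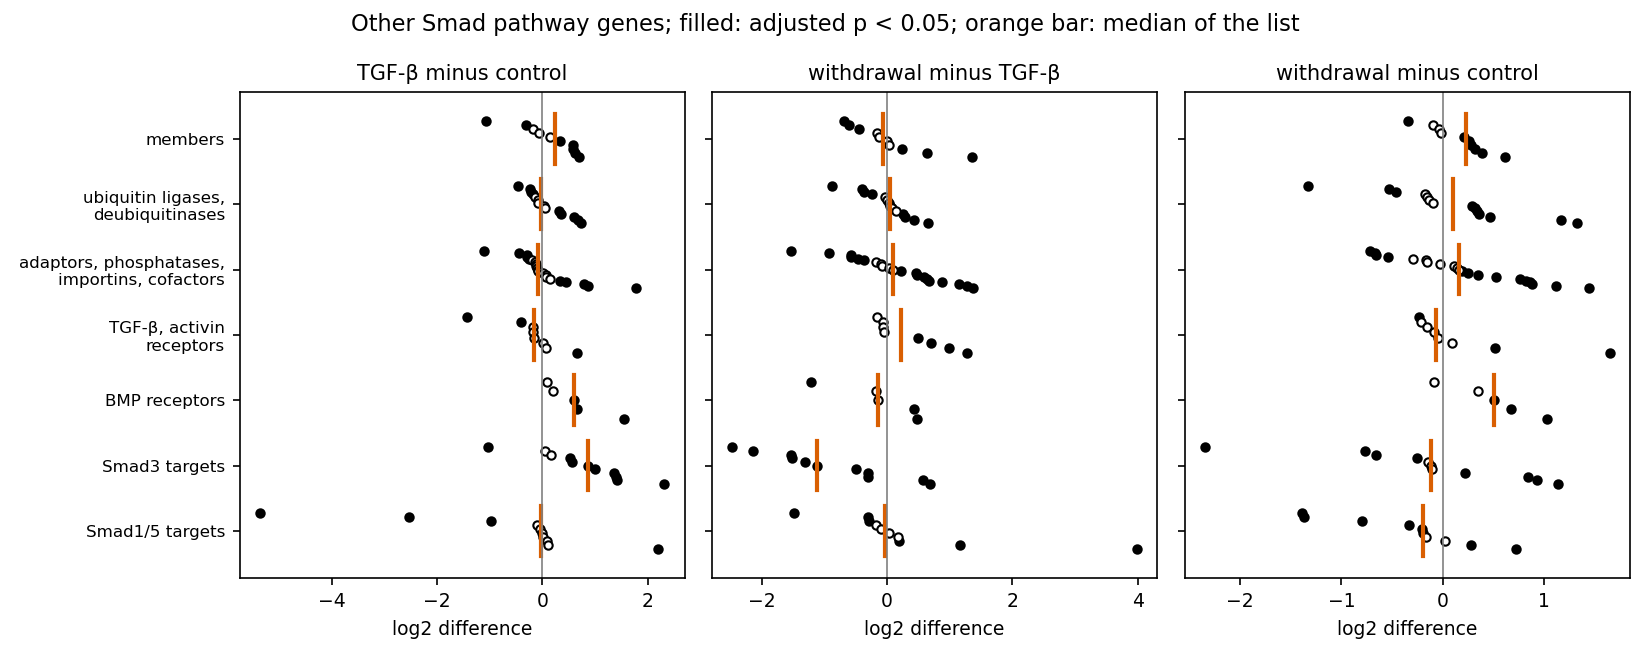
Log2 difference (horizontal axis) of every gene of the pathway lists in the 3 comparisons, with filled points for an adjusted p under 0.05 and an orange bar for the list's median. The Smad3 targets have medians of 0.87 under TGF-β and -1.11 on withdrawal against TGF-β, and no other list's median is as far from 0 in these 2 panels.

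The genes whose profile over the 6 arrays was nearest to those of the 2 members with the widest range of group means were sought among 16330 named genes, by the root mean square difference of log2 values after each gene was centred on its own mean. For Smad6 they were Akap9, Tmem63a, Slc4a4, Epha4 and Stom, at 0.046 to 0.071 log2 units. Akap9, which encodes a centrosomal and Golgi scaffold protein, had 8.97 and 9.01 on the withdrawal arrays, 7.74 and 7.65 on the TGF-β arrays and 8.80 and 8.69 on the control arrays. For Smurf2 they were Plin2, Rem2, Ilk, Cep170 and Sar1a, at 0.024 to 0.031 log2 units. Ilk, which encodes integrin-linked kinase, had 10.15 and 10.21 on the withdrawal arrays, 10.62 and 10.64 on the TGF-β arrays and 9.91 and 9.96 on the control arrays.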

How the data were processed

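Gene expression was measured in 6 samples of NMuMG cells on 1-colour Affymetrix arrays, 2 per group. The authors deposited a log2 expression value for each probe set, computed by RMA according to the submitters' processing notes; which software ran it is not given in the sources used here. RMA sets the arrays to a common distribution, so a shift shared by all genes is removed. Array medians were 5.77 to 5.79, and no detection calls were used. Total RNA was labelled with the 3' IVT Express kit, per the labels' protocols.

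Of 45101 probe sets, 64 controls were left out, and 34945 had 1 gene symbol in the platform annotation, 932 several and 9160 none; 34741 matched a RefSeq gene number (GRCm38.p6, used for names and promoters) and 0 symbols changed. All 6 arrays entered a single linear model for each gene (lmFit and eBayes in limma 3.58.1, R 4.3.3), with Benjamini-Hochberg adjustment over 18193 genes, or over 34945 probe sets where a single probe set is given, and a threshold of 0.05; the fit was checked on simulated data. The members and lists were chosen with earlier results of these data known. All members were named, up to 6 called genes per list and comparison, and the 5 genes nearest in profile to 2 members. Of 12 listed Smad3 targets 11, and of 4 listed adipocyte markers 3, were measured; the others were not analysed here. Same-numbered arrays did not deviate together. Alternatives were the replicate block, an intensity trend, a filter on dim genes, other probe set choices, cyclic loess, quantile normalization, scaling to poly-A or hybridization spikes, fits of 2 groups and leaving out each array. A count of members that moved back on withdrawal was planned and is not given, since the comparisons share arrays.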

Additional observations from a re-analysis of the deposited data

How the results depend on the processing

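Of 480 recomputed member differences, 406 kept their direction and their side of the threshold, 38 lost the call, 20 gained one and 25 changed sign. Of the sign changes 6 also lost the call and 3 also gained one. The 480 include settings where a difference cannot change: the replicate block, the intensity trend, the filter on dim genes and the fits of 2 groups. Leaving out an array of the group not compared repeats the fit of 2 groups. The upper ends of the ranges below, for leaving out each array, are those fits. With poly-A scaling the members called were 4 for TGF-β against control and 2 for withdrawal against control (7 each as reported). The genes called in these 2 comparisons were 5938 and 5716, against 5901 and 8235. For withdrawal against TGF-β 5018 genes were called, against 7983. With hybridization spike scaling 4 members, all lower, and 14340 genes (1595 higher, 12745 lower) were called for withdrawal against control, against 7 members and 8235 genes (3943 higher, 4292 lower). The median over all genes was -0.29, 0.11 and -0.18 in the 3 comparisons under poly-A scaling, and under hybridization scaling -0.18, -0.26 and -0.43. The spike offsets also differed within groups. They differed most on the control arrays for poly-A (0.006 and -0.278) and on the withdrawal arrays for hybridization (0.309 and 0.103). Such an offset is shared by all genes of an array, which the test of a single gene does not take into account.

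Leaving out each array gave 7 to 7, 5 to 6 and 5 to 7 members called, in the order of the comparisons above, and 4248 to 5781, 6715 to 7501 and 6706 to 8073 genes.

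Sign changes for TGF-β against control were Smad1 at -0.13 with poly-A and -0.0195 with hybridization scaling, and Smad2 at 0.12 with the mean of probe sets and 0.30 without x, s and a probe sets. For withdrawal against TGF-β they were Ski at 0.0326 with cyclic loess and 0.14 with poly-A scaling, Smad2 at -0.0049 with quantile normalization and -0.18 with hybridization scaling, Smad4 at 0.0692 with the mean of probe sets, and Smad5 at 0.0108 with poly-A scaling. For withdrawal against control they were Smad2 at 0.16, 0.34 and 0.0162 with the mean of probe sets, without x, s and a probe sets and with cyclic loess, Smad3 at -0.0029 with the mean of probe sets, and, with hybridization scaling, Smad1 at -0.0059, Smad3 at -0.0723, Smad5 at -0.19, Smad6 at -0.11 and Smurf2 at -0.13. Leaving out an array changed the sign of Smad2 (-0.113 to 0.0012 for TGF-β against control, -0.0185 to 0.0960 for withdrawal against TGF-β and -0.0538 to 0.0191 for withdrawal against control), of Ski for withdrawal against TGF-β (-0.0278 to 0.0163), and for withdrawal against control of Skil (-0.246 to 0.0531) and Smad7 (-0.0813 to 0.0058). The cause was not tested.

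The replicate numbers did not pair the arrays (correlations of same-numbered deviations -0.0077 to 0.0039). With the replicate block, Smad5 at 0.21 and Smad6 at 0.28 in withdrawal against control did not pass (limma adjusted p = 0.0543 and 0.0516), and it changed no other call of a member. Dim probe sets limit what can be said of Smad3 and Skil beyond their brightest ones.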
